A study of Mus musculus with 6 samples.

Results

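The genes described here build and run the transport system of sensory cilia, and their members were chosen by name. They are all genes on the array called Ift, Bbs or Nphp followed by a number, together with a list of 21 further names that covers cilium motors, transition zone proteins and carriers of lipid-anchored proteins. Of 18193 genes measured by a probe set that names exactly 1 gene, 43 met this rule, and each was represented by its probe set with the highest mean. Of the 21 listed names, Arl6 had no such probe set and is not analysed here.

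All mice were of the BALB/c AJ strain and 40 days old (PN40). RNA from retinas described as freed of pigment epithelium was hybridised to 6 one-colour Affymetrix arrays. Of these, 3 carry the label ko/ko, homozygous for a deletion of Nxnl2, and 3 carry the label wt/wt. Nxnl2 encodes a thioredoxin-like protein of photoreceptors known as rod-derived cone viability factor 2. The sources used here give neither how the deletion was made nor whether replicates came from separate animals. The p-values therefore reflect the spread of these samples alone, and that spread may be technical. All values are log2 signals made with RMA, a method that corrects background, normalizes arrays to each other and summarises the probes of a set, so that 1 log2 unit is a 2-fold difference.

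A cilium makes no protein of its own, so everything in it is carried in. Intraflagellar transport (IFT) trains move along the axoneme, outward with the IFT-B complex and kinesin-II and back with the IFT-A complex and dynein-2, while the BBSome, an adaptor built from Bardet-Biedl syndrome proteins, sorts membrane proteins on and off these trains. At the base, the transition zone gates entry. The photoreceptor outer segment is a modified sensory cilium joined to the cell body by a long transition zone called the connecting cilium, and olfactory sensory neurons also signal through sensory cilia.

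The array labelled knockout replicate 3 goes against its label and is set apart in all that follows. Its brighter Nxnl2 probe set read 9.21, against 3.78 and 3.73 in knockout replicates 1 and 2 and 11.42 ± 0.04 (SD, n = 3) in wild type. The dimmer probe set read 6.83 there, 4.25 and 4.11 in knockout replicates 1 and 2, and 8.51 ± 0.26 (SD, n = 3) in wild type. The mean level of 14 rod markers was 4.01 on that array against 12.84 to 13.02 on the others. Bacillus control probe sets, which match no mouse transcript, reached 4.13 there and at most 4.60 on any array. Olfactory sensory neuron markers had a mean level of 11.06 on that array against 7.27 to 7.47, and 8 of 10 lay more than 1 log2 unit above. Motile cilia markers had a mean level of 7.11 against 4.73 to 4.83, and 12 of 18 lay as far above. Of all genes, 15.8% lay as far above. On the olfactory list Ric8b differed by 0.42, and Cngb1, also counted as a rod marker here, by -6.63. Its gene Gng13 (1.63) is also counted as a bipolar cell marker. Over all probe sets the array labelled knockout replicate 3 correlated with the others at 0.848 to 0.853, and those correlated among themselves at 0.994 to 0.996. Since it is 1 array, its differences carry no test, and its genotype label and its tissue content cannot be told apart.

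The 43 members were expressed on the 5 other arrays and varied little there. The lowest member value on any of those arrays was 6.48, that of Kif17, above every Bacillus control. Between these arrays the members had a median SD of 0.08, against 0.11 for all genes, and no member differed by more than 1 log2 unit on any of the 5 arrays from the mean of the other 4. Rpgrip1, the scaffold that holds RPGR in the connecting cilium, and Cep290, a structural protein of the transition zone, stood at 11.38 ± 0.16 and 8.80 ± 0.07 (SD, n = 5 each).

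On the array labelled knockout replicate 3 the members moved apart by role. The BBSome and its assembly factors lay below the other 5 arrays in 10 of 10 genes, most IFT genes lay somewhat above, and photoreceptor connecting cilium and carrier genes held both the lowest and the highest values. Over all members, 12 of 43 lay more than 1 log2 unit below, against 11.5% of all genes, and 5 of 43 lay more than 1 log2 unit above, against 15.8% of all genes. Taken either way this was 17 of 43 members, against 27.2% of all genes. Dim genes have little room to fall, and all 43 members remained when dim probe sets were removed. Of the 11812 genes then left, 16.8% lay more than 1 log2 unit below and 14.9% as far above. More than 2 log2 units below lay 5 of 43 (4.49% of all genes) and as far above 1 of 43 (7.44%). The array lay outside the range of the other 5 for 41 members, against 78.8% of all genes, with 19 members above all 5 (36.5% of genes) and 22 below all 5 (42.4% of genes). The median difference was -0.10 for the members and -0.05 for all genes. In a whole tissue sample, fewer cells of a type and less RNA per cell cannot be told apart. Other markers differed on this array too. Nasal gland and airway markers had a mean level of 11.15 against 3.93 to 4.03, with 8 of 9 more than 1 log2 unit above, and microglia markers 6.96 against 5.98 to 6.48, with 6 of 9 as far above. The microglia list did not go one way, since P2ry12 lay below (-2.08) and Cx3cr1 (0.03) and Trem2 (0.10) differed little. Cone markers had a mean level of 4.65 against 9.52 to 9.72, bipolar cell markers 6.42 against 9.43 to 9.60, and pigment epithelium markers 5.08 against 7.54 to 8.64. The part of these lists, and of the rod, olfactory and motile cilia lists, in the members' values was not tested.

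**Figure D1:**
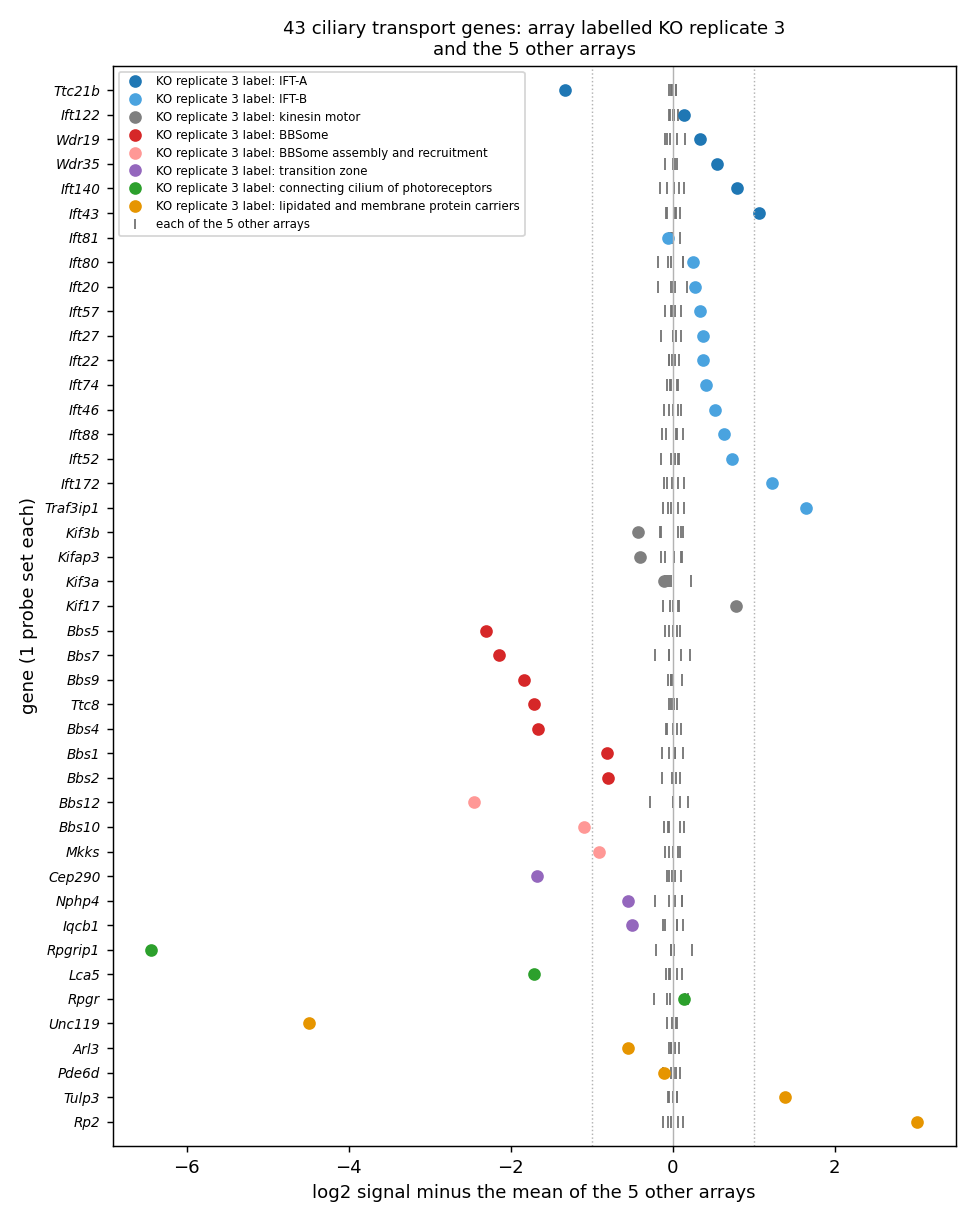
Log2 signal of the 43 members on the array labelled knockout replicate 3 (coloured points, by role) and on each of the 5 other arrays (grey ticks), as the difference from the mean of those 5; dotted lines mark 1 log2 unit either way. All 10 BBSome and assembly genes lie on the lower side, 16 of 18 IFT genes on the higher side, and Rpgrip1 (-6.44) and Rp2 (3.02) at the ends.

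All 7 BBSome subunits among the members lay below every other array, against 42.4% of all genes, with a median difference of -1.72. Bbs5, a subunit that binds phosphoinositides, read 8.17 on the array labelled knockout replicate 3, against 10.42 and 10.38 in knockout replicates 1 and 2 and 10.53, 10.56 and 10.47 in wild type. Bbs7, a beta-propeller subunit, read 8.11 there, against 10.04 and 10.47 in the other knockouts and 10.22, 10.22 and 10.37 in wild type. For Bbs9, another propeller subunit, it read 7.01, against 8.84 and 8.82 in the other knockouts and 8.79, 8.83 and 8.96 in wild type. In each of these 3 genes the single array stood far outside the narrow band of the other 5, whose knockout and wild-type values overlapped for Bbs7 and Bbs9 and not for Bbs5. Ttc8, the BBSome subunit also called BBS8, read 8.94 there, against 10.63 and 10.71 in knockout replicates 1 and 2 and 10.61, 10.67 and 10.66 in wild type. Bbs4, a tetratricopeptide repeat subunit, read 8.92, against 10.59 and 10.69 in the other knockouts and 10.53, 10.50 and 10.64 in wild type. Bbs1, whose protein binds the GTPase ARL6, and Bbs2, another propeller subunit, differed least, by -0.81 and -0.80. All 11 probe sets of the 7 subunits lay on the lower side, although a dim one of Bbs7 (3.19, against 3.32 to 3.48) was within the range of background.

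The chaperonin-like proteins that assemble the BBSome went the same way. Bbs12 read 5.84 on the array labelled knockout replicate 3, against 8.39 and 8.29 in knockout replicates 1 and 2 and 8.01, 8.48 and 8.29 in wild type. That is 5.49-fold lower than the mean of the other arrays, the farthest of the Bardet-Biedl genes. Bbs10 lay 1.10 and Mkks, also called BBS6, 0.91 log2 units below, and all 5 probe sets of these 3 genes were on the lower side.

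IFT-B, the train complex of outward transport, lay above every other array in 11 of its 12 genes among the members, against 36.5% of all genes. The median difference of the 12 was 0.39. Traf3ip1, which is IFT54, read 9.28 on the array labelled knockout replicate 3, against 7.57 and 7.51 in knockout replicates 1 and 2 and 7.60, 7.77 and 7.69 in wild type. Ift172, the largest IFT-B protein, read 9.75, against 8.42 and 8.66 in the other knockouts and 8.46, 8.52 and 8.59 in wild type. These were the only IFT-B genes more than 1 log2 unit above. Ift52, of the IFT-B core, read 9.01 there, against 8.14 and 8.31 in the other knockouts and 8.26, 8.34 and 8.35 in wild type. Ift88, the gene mutated in the Oak Ridge polycystic kidney mouse, read 8.79, against 8.06 and 8.19 in the other knockouts and 8.02, 8.27 and 8.20 in wild type. Smaller positive differences, between 0.25 and 0.52, were found for Ift20, Ift22, Ift27, Ift46, Ift57, Ift74 and Ift80, and Ift81 was the exception at -0.06. Other probe sets were less uniform: over all 18 probe sets of the 12 genes, 13 lay on the higher side and 5 on the lower, among them the dimmer probe set of Ift80 (-0.78).

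IFT-A, the complex of return transport, lay above all 5 other arrays in 5 of 6 genes by the chosen probe sets, against 36.5% of all genes. Ift43 read 10.02 on the array labelled knockout replicate 3, against 8.88 and 9.05 in knockout replicates 1 and 2 and 8.98, 8.998 and 8.87 in wild type. Ift140, a core subunit, read 9.69 there, against 8.73 and 8.90 in the other knockouts and 8.82, 8.97 and 9.03 in wild type. Ttc21b, which is IFT139, went the other way at -1.33, and its second probe set gave -1.14. Wdr35, which is IFT121, read 8.64, against 8.10 and 8.15 in the other knockouts and 7.99, 8.12 and 8.10 in wild type. Its dimmer probe set read 4.56, against 6.87 and 6.13 in the other knockouts and 6.07, 6.13 and 6.36 in wild type, a difference of -1.75, so the direction for Wdr35 rests on the probe set. Ift122 and Wdr19, which is IFT144, stood at 0.14 and 0.34, each with another probe set on the lower side. Over all 10 IFT-A probe sets, 5 lay higher and 5 lower.

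Kinesin motors differed little, apart from Kif17. This homodimeric kinesin of the kinesin-2 family read 7.38 on the array labelled knockout replicate 3, against 6.67 and 6.48 in knockout replicates 1 and 2 and 6.57, 6.67 and 6.60 in wild type, and all 3 of its probe sets lay on the higher side. The kinesin-II motor subunit Kif3b and its associated protein Kifap3 lay 0.43 and 0.40 log2 units below. For the partner motor Kif3a the used probe set gave -0.11, while its other probe sets gave 0.53, -0.34 and -0.19.

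**Figure D2:**
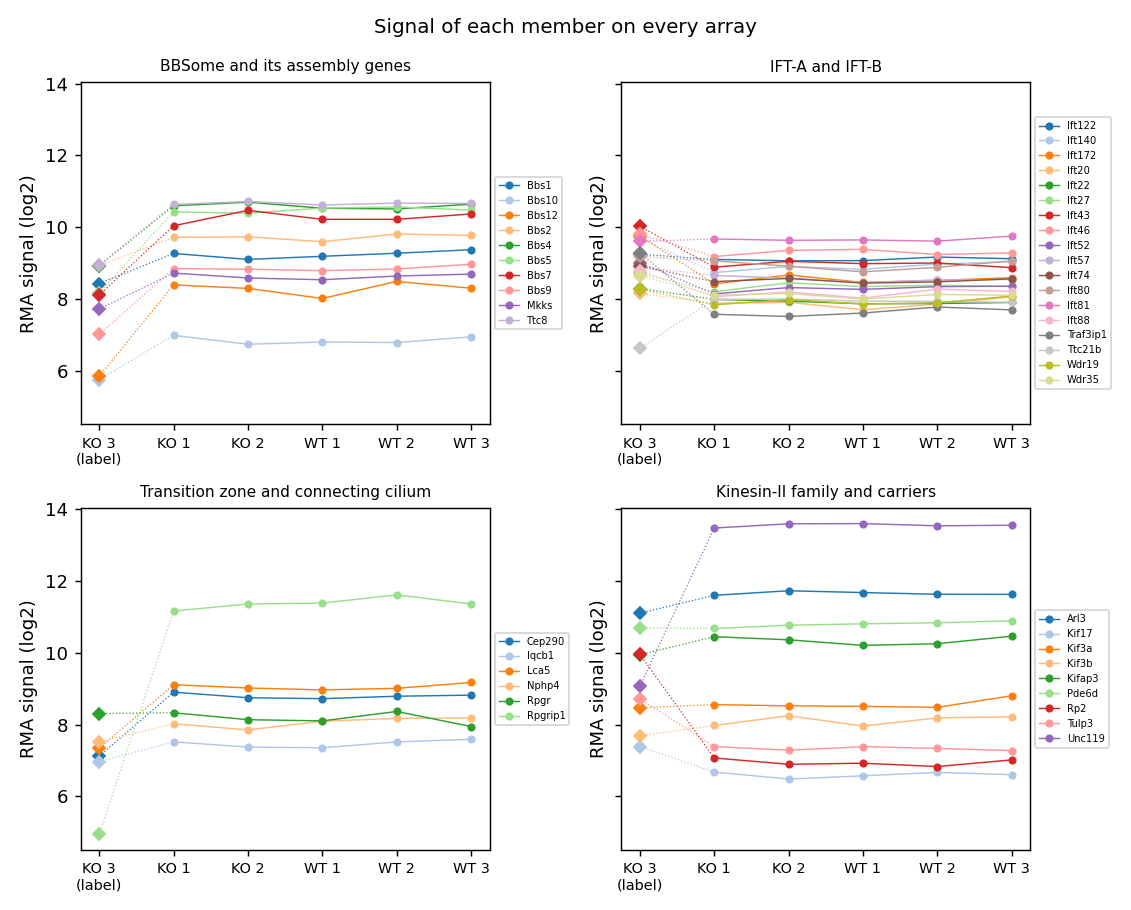
RMA signal (log2) of every member on each array, with the array labelled knockout replicate 3 at the left (diamonds) and the other 5 arrays as circles; lines join the values of 1 gene and dotted lines lead to the single array. The 5 arrays on the right form nearly flat lines, while the BBSome panel drops at the diamonds and Rpgrip1, Unc119 and Rp2 show the widest steps.

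Genes of the connecting cilium and transition zone held the lowest value of all. Rpgrip1 read 4.94 on the array labelled knockout replicate 3, against 11.17 and 11.36 in knockout replicates 1 and 2 and 11.39, 11.62 and 11.36 in wild type, a difference of -6.44 from the mean of the other 5, or 86.7-fold lower by this probe set. Its 3 other probe sets differed by -7.86, -7.31 and -4.43, so the size of the difference depends on the probe set. Those 3 read 3.45 to 3.60 there, below the highest Bacillus control of that array (4.13), which limits what they can show of the size. Its partner gene Rpgr, a regulator of small GTPases, instead read 8.31 there, within the 7.94 to 8.36 of the other 5 arrays. Lca5, the gene of the IFT-binding protein lebercilin, read 7.34 there, against 9.11 and 9.02 in the other knockouts and 8.97, 9.01 and 9.17 in wild type. Cep290 read 7.12, against 8.90 and 8.75 in the other knockouts and 8.72, 8.79 and 8.82 in wild type. By these probe sets Lca5 and Cep290 lay 3.29-fold and 3.19-fold below the mean of the other arrays, and Rpgr did not leave the range of the retina arrays. A dimmer probe set of Lca5 differed by only -0.85, so the size for Lca5 also depends on the probe set. Nphp4 and Iqcb1, the nephronophthisis genes of the same gate, lay 0.55 and 0.50 log2 units below.

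Carriers of lipid-anchored proteins split between the ends of the range. Unc119, which carries the acylated transducin alpha subunit, read 9.06 on the array labelled knockout replicate 3, against 13.48 and 13.60 in knockout replicates 1 and 2 and 13.60, 13.54 and 13.56 in wild type. Rp2, which switches off the small GTPase ARL3, read 9.96 there, against 7.07 and 6.89 in the other knockouts and 6.92, 6.83 and 7.01 in wild type. That is 8.10-fold higher for Rp2, with all 5 of its probe sets between 1.21 and 3.03 log2 units above, and 22.5-fold lower for Unc119. Tulp3, which brings membrane receptors to IFT-A, read 8.72, against 7.39 and 7.28 in the other knockouts and 7.38, 7.33 and 7.27 in wild type. Its other probe sets gave -0.15 and -0.04, so that the mean of its probe sets stood at 0.40. Arl3, the GTPase that releases cargo from both UNC119 and the delta subunit PDE6D, lay 0.55 log2 units below. Pde6d, the carrier of prenylated proteins, read 10.69, between 10.68 and 10.77 of the other knockouts and below the 10.81, 10.84 and 10.89 of wild type.

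Promoter sequences are shown for 3 members that lay below (Rpgrip1, Unc119, Bbs7) and 2 that lay above (Traf3ip1, Ift57), as examples of the letters searched for. The members shown were chosen after their values and matches were seen. Levels of some factors that bind such letters are given as well, and a link between them and the members' values was not tested. Crx, the homeobox factor of photoreceptors, read 3.95 on the array labelled knockout replicate 3, against 12.28 ± 0.03 (SD, n = 5) on the others. Factors of ciliary genes did not go one way. Rfx3 and Foxj1 read 10.13 against 8.53 ± 0.11 and 7.95 against 4.85 ± 0.09 (SD, n = 5 each). Of the other RFX genes Rfx1 differed by -0.79, Rfx2 by 0.72, Rfx7 by 0.20 and Rfx4, dim on all arrays, by -0.27. Over the 9 genes of the list the median was -0.27, with 4 positive and 5 negative. Besides the RFX genes and Foxj1, that list holds Crx, Nrl (-9.64) and Otx2 (-1.61), all of them negative. The 250 bases before an annotated start are given 5′ to 3′ on the gene's strand, from RefSeq with build GRCm38.p6. Capitals mark the CRX letters TAATCC, the RFX X-box arm GTTGCC, or the full X-box (GTTNCC, 2 bases, GGNAAC), on either strand.
Rpgrip1 (chr14:52110653-52110902, plus strand, CRX letters): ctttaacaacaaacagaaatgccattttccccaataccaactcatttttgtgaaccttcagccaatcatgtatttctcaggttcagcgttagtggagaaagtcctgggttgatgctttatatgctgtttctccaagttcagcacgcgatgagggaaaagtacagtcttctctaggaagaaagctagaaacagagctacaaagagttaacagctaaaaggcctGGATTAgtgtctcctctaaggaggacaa
Unc119 (chr11:78345334-78345583, plus strand, 1 of 3 annotated starts, CRX letters): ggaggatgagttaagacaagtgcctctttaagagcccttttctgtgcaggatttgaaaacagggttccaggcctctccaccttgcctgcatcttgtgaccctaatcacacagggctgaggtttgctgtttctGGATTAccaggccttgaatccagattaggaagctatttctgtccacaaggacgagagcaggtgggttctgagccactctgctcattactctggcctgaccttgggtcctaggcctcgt
Bbs7 (chr3:36613390-36613639, minus strand, full X-box holding the arm): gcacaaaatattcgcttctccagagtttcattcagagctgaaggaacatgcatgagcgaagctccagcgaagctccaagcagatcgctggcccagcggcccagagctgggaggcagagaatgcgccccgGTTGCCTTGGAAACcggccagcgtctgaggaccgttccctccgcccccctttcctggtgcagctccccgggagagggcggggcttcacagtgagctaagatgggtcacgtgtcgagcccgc
Traf3ip1 (chr1:91494418-91494667, plus strand, X-box arm): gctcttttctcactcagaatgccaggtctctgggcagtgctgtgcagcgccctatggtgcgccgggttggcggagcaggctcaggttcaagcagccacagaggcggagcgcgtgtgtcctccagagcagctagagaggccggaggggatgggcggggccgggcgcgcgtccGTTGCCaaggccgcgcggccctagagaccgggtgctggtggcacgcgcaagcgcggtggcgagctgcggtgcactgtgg
Ift57 (chr16:49699044-49699293, plus strand, X-box arm at 2 places): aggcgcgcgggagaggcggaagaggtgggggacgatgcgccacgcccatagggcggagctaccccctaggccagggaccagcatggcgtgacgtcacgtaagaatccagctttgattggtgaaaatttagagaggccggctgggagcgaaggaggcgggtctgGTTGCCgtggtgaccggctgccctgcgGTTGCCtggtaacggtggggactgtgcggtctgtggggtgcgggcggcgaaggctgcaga

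Windows of 250 bases before and 50 bases after the start were found for 40 of the 43 members, 46 windows in all. The arm GTTGCC was present in 34.8% of these windows and in 12.5% of all 32851 windows of the table. By role it was found in 3 of 7 BBSome windows and 5 of 10 IFT-B windows, so genes that lay below and genes that lay above both carried it. The full X-box with 2 bases between its arms was present in 1 member window, that of Bbs7, and in 0.451% of all windows. The form with 3 bases between its arms was in none of the members and 0.0609% of all. A form with 1 base between the arms was not searched for. In the Ift57 sequence above, the second GTTGCC is followed by 1 base and GGTAAC, so Bbs7 is not the only member holding both arms. CRX letters were found in 6.52% of member windows, those of Rpgrip1, Bbs1 and 1 of the 3 starts of Unc119, and in 7.06% of all. These matches describe the letters only, and binding was not measured.

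Knockout replicates 1 and 2, in which Nxnl2 was at background, were then set against the 3 wild-type arrays. None of the 43 members passed. By limma with Benjamini-Hochberg adjustment over all genes, 0 of 43 members and 2 of 18193 genes (0.011%) had an adjusted p under 0.05, and Nxnl2 was among those 2 with a log2 change of -7.67 (SE 0.09, adjusted p = 1.1e-09). The other was Erdr1, named here because its value was seen to pass. At an unadjusted p under 0.05 stood 0 members, against 3.45% of all genes. Changes of the members ran from -0.21 to 0.11 with a median of -0.00, against 0.00 for all genes, and 21 were positive and 22 negative.

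**Figure D3:**
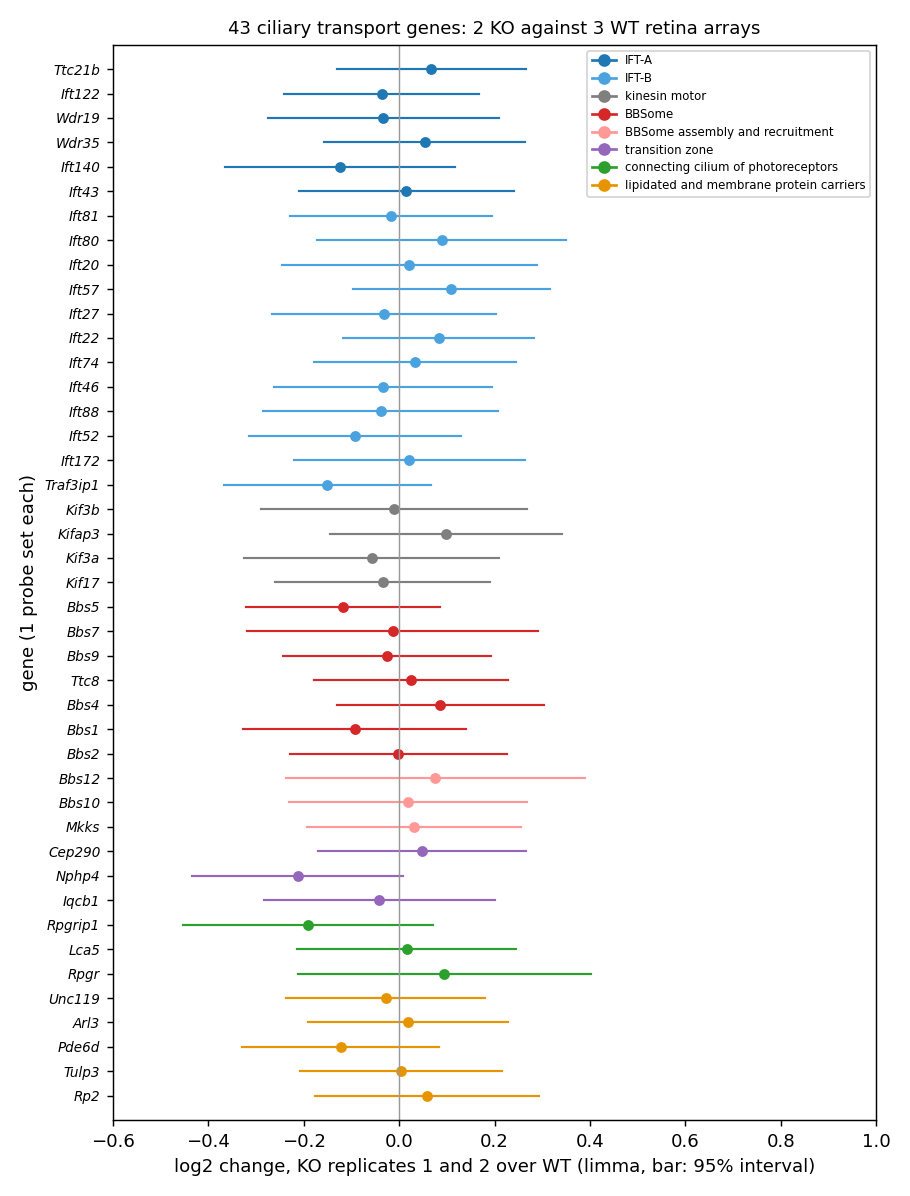
Log2 change of the 43 members in knockout replicates 1 and 2 over 3 wild-type arrays, with the 95% interval from limma as bars, coloured by role. Every interval crosses 0, and the ends lie at -0.45 (Rpgrip1) and 0.40 (Rpgr).

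Each interval gives, for its gene alone, the range of change compatible with these samples. If the replicates are technical, variation between animals is not covered. All 43 of the 95% intervals held 0 and lay within 0.5 log2 units of it. The lowest bound was that of Rpgrip1 at -0.45, a 1.37-fold decrease, and the highest that of Rpgr at 0.40, a 1.32-fold increase. For the marker Cep290 the change was 0.05 with an interval from -0.17 to 0.27.

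Nphp4, which links the nephronophthisis proteins of the transition zone, had the smallest p (0.0578 unadjusted, by limma). It read 8.02 and 7.85 in knockout replicates 1 and 2, against 8.09, 8.17 and 8.18 in wild type, which is -0.21 on the log2 scale (SE 0.10, adjusted p = 0.999 by limma). Both knockout values lay below all wild-type values, and a dimmer probe set stood at -0.08 at a level near background (4.05 to 4.20). Rpgrip1, with the values given above, stood at -0.19 (SE 0.11, adjusted p = 0.999 by limma), and its groups overlapped. Its 3 other probe sets gave -0.18, -0.17 and -0.10, so all 4 lay on the same side.

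The next members by p were Traf3ip1, Pde6d, Bbs5 and Ift57, none of which passed. Traf3ip1 stood at -0.15 (SE 0.10) and Pde6d at -0.12 (SE 0.09). Bbs5 stood at -0.12 (SE 0.09). Ift57, a peripheral IFT-B protein, read 8.65 and 8.58 in these knockouts, against 8.45, 8.52 and 8.54 in wild type, without overlap. On the array labelled knockout replicate 3 it read 8.89. It stood at 0.11 (SE 0.09), with an adjusted p of 0.999 by limma for each of these 4. For 7 of 43 members the groups were fully apart, against 16.5% of all genes. Both knockout values stood above every wild-type value for Ift22, Ift57 and Ttc21b, 3 of 43 against 9.19% of all genes. They stood below for Bbs5, Nphp4, Pde6d and Traf3ip1, 4 of 43 against 7.27% of all genes.

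Markers of other cells differed between single retina arrays. Lens markers had a mean level of 6.62 and 7.08 in knockout replicates 1 and 2 and of 6.79 to 9.18 in wild type. In the same knockouts skeletal muscle markers stood at 4.36 and 6.65, against 4.40 to 4.96 in wild type, and reactive glia markers at 6.80 and 5.98, against 5.70 to 5.78 in wild type. All 8 genes of the reactive glia list were positive, and Edn2 changed most. Edn2 read 8.73 and 5.06 in the knockouts and 4.17, 4.86 and 4.61 in wild type. That list mean therefore leans on 1 gene, and from which cells its signal came was not tested. Microglia markers stood at 6.48 and 6.11 in the knockouts, against 5.98 to 6.04 in wild type. Pigment epithelium markers stood at 7.54 and 8.06 in the knockouts, against 7.91 to 8.64 in wild type. Although the retinas are described as freed of that tissue, its marker Rpe65 read 9.54 and 10.02 in the knockouts. In wild type Rpe65 read 10.15, 10.82 and 9.90. Rod markers stood at 12.84 and 12.95 in the knockouts, against 12.95 to 13.02 in wild type. Their median change was only -0.03, with 2 of 14 positive and 12 negative. The largest was that of Prph2, which read 12.27 and 12.00 in the knockouts and 12.84, 12.77 and 13.09 in wild type. Its change was -0.77 (unadjusted p = 0.000273, adjusted p = 0.578 by limma). The part of these lists in the members' values was not tested, and 0 members passed with any of the 5 arrays left out.

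With all 6 arrays as the study's design describes, 0 of 43 members and 0 of 18193 genes (0%) passed by limma, and 0 members against 0.726% of genes had an unadjusted p under 0.05. The members' mean differences then ran from -2.30 for Rpgrip1 to 1.05 for Rp2. Those ends are the genes that stood farthest from the other 5 on the array labelled knockout replicate 3.

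Other genes of the cilium were compared by lists that hold none of the members. In knockout replicates 1 and 2 over wild type, 0 genes passed among 15 of the Meckel syndrome (MKS) module of the transition zone, 8 of the dynein-2 motor, 14 of basal body appendages and ciliogenesis, 15 of ciliary GTPases and membrane trafficking, 12 of the photoreceptor axoneme and calyx, and 6 IFT genes that carry other names. At an unadjusted p under 0.05 stood 1 gene, of the photoreceptor axoneme list. The median changes of these lists lay between -0.05 and 0.03.

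On the array labelled knockout replicate 3 the lists differed in their medians. The MKS list had a median difference of -0.04, with 1 of 15 genes more than 1 log2 unit below and 0 as far above. That gene was Tmem237, a transition zone membrane protein, which read 7.93 against 9.50 ± 0.06 (SD, n = 5). The dynein-2 list stood at 0.15 and the basal body list at 0.04. IFT genes under other names stood at -0.29, with 2 of 6 positive and 4 negative, while the 18 IFT members had a median of 0.39. Ttc30b and Ttc26 lay above (0.72 each). Ttc30a1 (-0.85), Ttc30a2 (-0.42, dim on all arrays), Hspb11 (-0.37) and Cluap1 (-0.22) lay below, so the higher side of the IFT members did not hold for most of these genes. The photoreceptor axoneme and calyx list stood at -2.51, with 9 of 12 genes more than 1 log2 unit below, where Rp1, the microtubule protein of the outer segment axoneme, read 3.07 against 12.04 ± 0.10 (SD, n = 5).

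**Figure D4:**
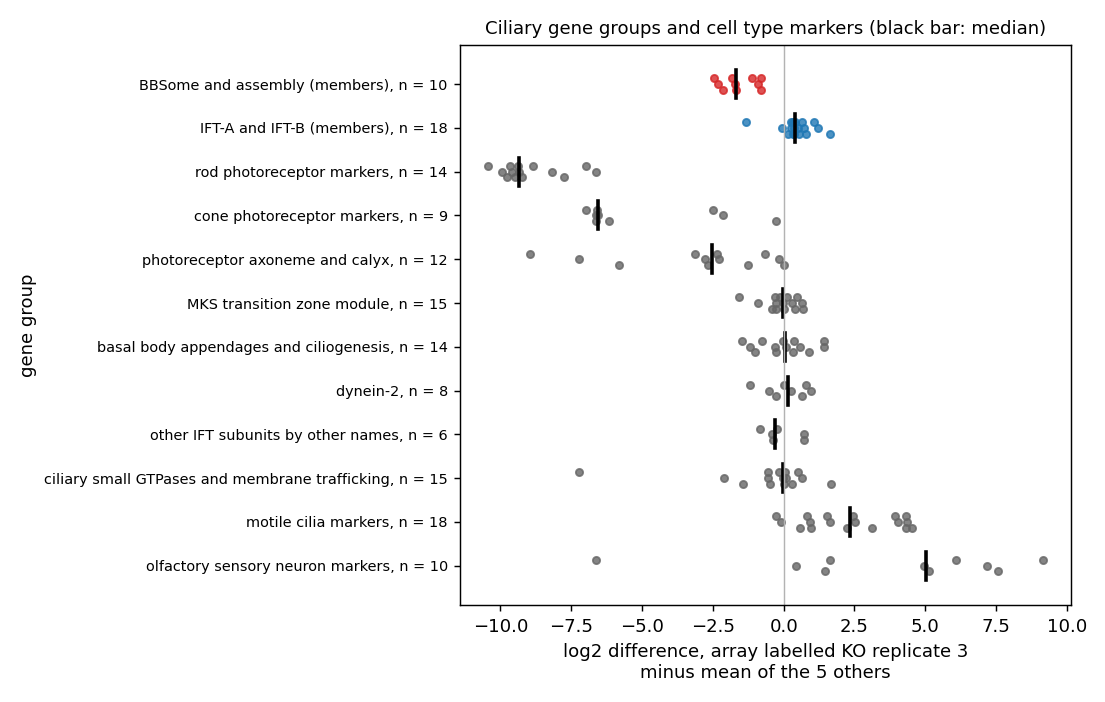
Log2 difference between the array labelled knockout replicate 3 and the mean of the 5 others for single genes (points) of ciliary groups and cell type marker lists, with the median as a black bar. The BBSome group (median -1.69) lies below the IFT group (0.39) and below the other ciliary lists except those of photoreceptors.

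Relatives of the carriers on the GTPase and trafficking list lay on either side on this array. Unc119b, the second Unc119 gene, read 9.07 against 8.44 ± 0.05 (SD, n = 5), a difference of 0.63, where Unc119 differed by -4.49. Tulp1, the photoreceptor member of the tubby family, read 5.68 against 12.89 ± 0.15 (SD, n = 5), and Tub, the founding tubby gene, differed by -2.10. The used probe set of Tulp3 differed by 1.39 and its others by -0.15 and -0.04. Arl2, the relative of Arl3, differed by -0.50, on the same side as Arl3 at -0.55. Bbip1, a small BBSome subunit that the naming rule leaves out, differed by -0.18, less than any of the 7 subunits above, and Lztfl1, a regulator of the BBSome, by 0.04.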

How the data were processed

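Retinal RNA was labelled as biotinylated cRNA and hybridised to one-colour Affymetrix arrays, per the labels' protocols. The deposited values are on the log2 scale; RMA is named in the submitters' processing notes, while its software and chip definition were not given in the sources used here. After RMA the arrays share a distribution (array medians between 5.77 and 5.80), which hides any change in total RNA. Of 45037 probe sets other than controls, 34945 name 1 gene in the platform annotation, 932 name several and were not used, and 9160 name none. The number of arrays limits the precision.

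The members and lists were chosen with earlier results of these data known. limma 3.58.1 in R 4.3.3 (lmFit, eBayes) was fitted on 18193 genes, two-sided, with a Benjamini-Hochberg threshold of 0.05. The fit was also run on simulated data in which all arrays had the same spread for a gene. Such data hold no array as far apart as the one labelled knockout replicate 3, so they cannot speak for the 6-array comparison. The array labelled knockout replicate 3 was described by differences from the mean of the other 5, with a limit of 1 log2 unit. In full are given Rpgrip1, Cep290, the 10 members farthest above and the 10 farthest below on that array, and the 6 with the smallest p. All 43 members matched the RefSeq table of GRCm38.p6 by Entrez identifier. No 2 arrays held identical values. Alternatives covered fit options, array weights, scaling, a filter on dim probe sets, the choice of probe set, a replicate block, thresholds and each array left out. Figures used matplotlib 3.10.9.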

Additional observations from a re-analysis of the deposited data

How the results depend on the processing

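No member passed in any alternative of either comparison. The 2 genes of the 5-array comparison became 1 with the mean of all probe sets, and leaving out each array gave 1 to 8: 8 without knockout replicate 1, 8 without knockout replicate 2, 1 without wild-type replicate 3. A lone remaining knockout array was taken to vary as wild type does. In the 6-array comparison, 0 genes became 2 with array quality weights and 2 without the array labelled knockout replicate 3 (0 to 2 over arrays left out), and Nxnl2 passed in both. Leaving out each array gave 0 members called in both comparisons. On the array labelled knockout replicate 3, 5 members above and 12 below kept these counts with each other array left out, with either genotype alone as the reference, with both rescalings and with dim probe sets removed. The mean of all probe sets gave 4 above and the probe set with the largest SD gave 14 below. A limit of 2 log2 units left 1 above and 5 below. Wdr35 turned to -1.75 with the probe set of largest SD, and Tulp3 lay within the limit at 0.40 with the mean of its probe sets; the other 16 genes past the limit stayed past 1 log2 unit in all settings run.

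No pairing by replicate number was seen: deviations of same-numbered arrays correlated at -0.07 and 0.08 over the 5 arrays. With 2 knockout arrays, their deviations from their own mean mirror each other, so this check cannot exclude pairing. With the replicate number as a block, 3 genes and 0 members passed in 5 arrays, and 0 genes and 0 members in 6. The precision is limited by 2 knockout arrays.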

Other observations

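Among the 5 retina arrays, wild-type replicate 1 held the lowest of the 5 values for 17 of 43 members, against 16.0% of all genes, and the highest for 2 of 43, against 15.0% of all genes. The members' median difference from the mean of the other 4 arrays was -0.01 and 0.01 in knockout replicates 1 and 2, and -0.07, 0.00 and 0.07 in wild-type replicates 1, 2 and 3.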
